A study of Mus musculus with 150 samples.

Results

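Lungs of wild-type C57Bl/6 mice (WT) that had inhaled styrene for 52 weeks were compared with lungs of WT mice that had inhaled it for 26 weeks. The members are the 10 arrays whose titles give WT, a dose of 120 ppm and 52 or 26 weeks, 5 per group, out of 150 arrays in the series. All mice were adult males, and each array holds the whole-lung RNA of 1 mouse, so replicates are separate animals. Exposure ran for 6 hours a day on 5 days a week, and the lungs were taken the morning after the last exposure. The shared treatment text names 1 or 4 weeks of exposure, whereas each sample's own label gives 26 or 52 weeks, which is used here.

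The other groups used are styrene-exposed and air-breathing KO, TG and CD-1 mice of both weeks, and WT mice of other weeks for their levels. KO mice carry the CYP2F2(-/-) genotype alone, and TG mice carry it with the 2F1,SA13,2B6 transgene, whose promoter the labels do not give. At 52 and 26 weeks there were 5 and 4 styrene-exposed KO mice, 5 and 5 TG mice, and 3 and 5 outbred CD-1 mice. On air there were 5 and 5 KO, 5 and 4 TG, and 4 and 5 CD-1 mice. Replicate 2 of CD-1 styrene at 26 weeks and replicate 3 of CD-1 air at 52 weeks ran on plate 2. The others of both weeks ran on plate 1. WT mice on air were analysed at 52, 78 and 104 weeks but not at 26, so in WT the length of exposure and the age of the mouse cannot be told apart. All 10 arrays lay on plate 1. The 52-week arrays filled wells 1 to 5 of row F, 4 of the 26-week arrays wells 8 to 11 of row B, and 26-week replicate 1 well 2 of row A, so plate row and week cannot be told apart.

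Styrene is an aromatic solvent that lung P450 enzymes oxidise to a reactive epoxide. In the mouse, CYP2F2 of the club cell carries out much of this step, and epoxide hydrolase and the glutathione transferases clear the product. The transcription factor Nrf2 turns on many of these clearing enzymes when cells meet oxidants or electrophiles. The lung also keeps a circadian clock, in which the proteins of Arntl and Clock drive repressors and the PAR bZIP factors Dbp, Tef and Hlf, while ROR and REV-ERB proteins act on Arntl and Nfil3 through ROR elements. Dbp, Tef and Hlf activate genes through D-boxes, and the Nfil3 protein represses through the same sites.

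The upstream sequences of 4 genes that carry the results are given first, since clock factors are known to act through such stretches. Each is the 250 bases before the most upstream RefSeq transcript start on GRCm38.p6, read 5′ to 3′ on the gene's strand. Capitals mark matches on either strand. In Arntl and Nfil3 they mark TNGGTCA, a loose pattern for the ROR element in which N is any base. In Ces1g they mark TTATGTAA, a D-box. Arntl lies on the plus strand at chr7:113207215-113207464, Nfil3 on the minus strand at chr13:52981040-52981289, Hlf on the minus strand at chr11:90390918-90391167, and Ces1g on the minus strand at chr8:93337210-93337459.
Arntl: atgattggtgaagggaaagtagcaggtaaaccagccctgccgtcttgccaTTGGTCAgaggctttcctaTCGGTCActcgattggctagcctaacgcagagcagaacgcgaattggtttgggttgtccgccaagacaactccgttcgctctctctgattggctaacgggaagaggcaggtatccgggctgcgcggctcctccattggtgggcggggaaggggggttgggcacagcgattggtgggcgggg
Nfil3: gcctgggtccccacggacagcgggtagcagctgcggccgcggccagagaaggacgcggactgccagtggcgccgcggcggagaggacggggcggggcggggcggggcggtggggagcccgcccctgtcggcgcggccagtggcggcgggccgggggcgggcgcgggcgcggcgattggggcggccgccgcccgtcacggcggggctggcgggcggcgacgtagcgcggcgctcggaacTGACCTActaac
Hlf: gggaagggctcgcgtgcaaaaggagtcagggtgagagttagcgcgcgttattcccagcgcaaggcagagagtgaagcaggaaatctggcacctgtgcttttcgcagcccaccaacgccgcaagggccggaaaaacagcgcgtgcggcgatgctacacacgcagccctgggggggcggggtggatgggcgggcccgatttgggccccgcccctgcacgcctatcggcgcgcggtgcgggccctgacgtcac
Ces1g: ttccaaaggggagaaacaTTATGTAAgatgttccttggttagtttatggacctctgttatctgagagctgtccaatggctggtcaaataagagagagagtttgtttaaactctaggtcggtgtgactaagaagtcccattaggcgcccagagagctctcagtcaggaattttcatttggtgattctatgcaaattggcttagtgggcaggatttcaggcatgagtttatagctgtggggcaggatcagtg
Arntl held 2 matches to TNGGTCA, beginning 200 and 181 bases before the start, and Nfil3 held 1, beginning 12 bases before it. Ces1g held 1 match to TTATGTAA, beginning 232 bases before the start. The window of Hlf held neither motif nor CACGTG, the E-box. RefSeq lists 32851 windows of this length, 1 before each transcript start, for 27025 genes. Of these windows, 9.19% held TNGGTCA, 0.819% TTATGTAA and 6.02% CACGTG. A match describes letters only, and a match to the loose pattern TNGGTCA need not be a ROR element.

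Values are log2 intensities per gene, so a difference of 1 is a doubling, and the number of arrays limits their precision. A gene was called where its adjusted p in limma, over 15695 genes tested, lay under 0.05. The 10 arrays had medians of 4.10 to 4.19 and correlated with one another at 0.981 to 0.995 over genes. The lung label fits the markers: Sftpc of type 2 cells had group medians of 13.83 at 52 weeks and 13.86 at 26 weeks, and Scgb1a1 of club cells 13.88 and 13.83, while Alb of liver had 3.18 and 3.41. Cyp2f2 itself had 13.34, 13.42, 13.25, 13.30 and 13.18 at 52 weeks and 13.25, 13.31, 13.33, 13.22 and 13.17 at 26 weeks, with overlapping groups (log2 difference 0.04, adjusted p = 0.863).

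At 52 weeks 1567 genes were called, which is 9.98% of those tested. Of these 471 (3.00%) were higher and 1096 (6.98%) lower than at 26 weeks, and 4001 genes had an unadjusted p under 0.05. Groups did not overlap for 1083 of the 1567 called genes and for 2021 of all 15695 tested (12.9%). Called genes were chosen on these same arrays, so more of them without overlap follows from the choice. Most differences were small: 22 of the higher and 17 of the lower genes differed more than 2-fold, and the median of all tested genes was -0.04. The count fell to 882, 997 and 923 without 52-week replicate 1, 2 or 5, and to 941 and 691 without 26-week replicate 2 or 3. Centring each array on its median gave 336 higher and 1888 lower genes, so the share of higher genes was 15.1% there, against 30.1% in the fit reported here. In the dimmest quartile of genes, with mean levels of 2.32 to 3.62, 277 were called lower and 14 higher. In the brightest quartile 468 were called lower and 170 higher. A stricter filter on level gave 474 higher and 805 lower genes, a share of higher genes of 37.1%. Of 756 called genes with more than 1 probe set, 516 had all their probe sets in the same direction.

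**Figure D1:**
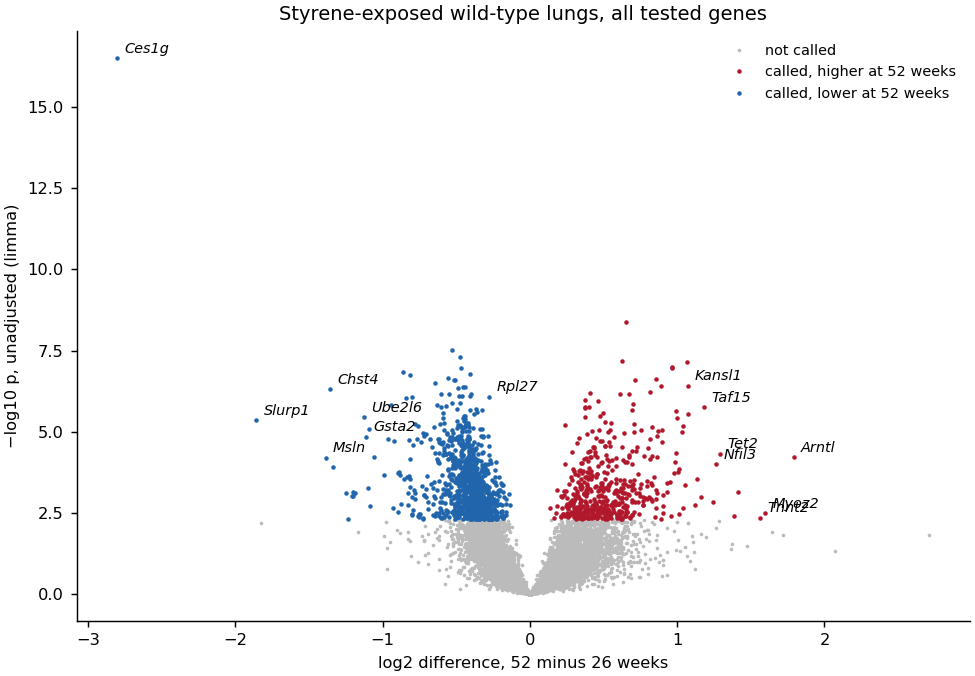
Each point is 1 of the 15695 genes tested in styrene-exposed WT lungs, with its log2 difference, 52 minus 26 weeks, on the x axis and -log10 of its unadjusted limma p on the y axis. Red points are the 471 genes called higher and blue points the 1096 called lower at 52 weeks, and Ces1g lies alone at the upper left with -2.80.

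The largest called difference was that of Ces1g, a carboxylesterase that hydrolyses esters and lipids. Its log2 levels were 5.58, 5.99, 5.75, 6.16 and 5.33 at 52 weeks and 8.99, 8.66, 8.80, 7.96 and 8.41 at 26 weeks. Every 52-week lung lay far under every 26-week lung, and Ces1g was 6.98-fold lower at 52 weeks (log2 difference -2.80 ± 0.28 SE, adjusted p = 4.82e-13). Without any 1 array the difference ran between -2.95 and -2.69, with an adjusted p of at most 8.03e-11. The related Ces1f had 5.96, 6.53, 5.70, 5.91 and 5.66 at 52 weeks and 6.99, 6.70, 6.92, 6.75 and 6.54 at 26 weeks. Its groups did not overlap, but it was not called (-0.83, adjusted p = 0.0860).

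Across the 4 styrene weeks Ces1g did not follow the length of exposure. WT styrene means were 8.56 ± 0.40 at 26 weeks, 5.76 ± 0.33 at 52, 7.79 ± 0.60 at 78 and 8.12 ± 0.45 at 104 (SD, n = 5 each). On air, WT mice had 5.86 ± 0.50 at 52 weeks (n = 5), 5.61 ± 0.36 at 78 (n = 2) and 5.38 ± 0.28 at 104 (n = 4). At 52 weeks the styrene lungs thus overlapped the air lungs, while at 78 and 104 weeks every styrene lung lay above every air lung. Of these arrays, 4 of the styrene lungs of 78 weeks and all lungs of 104 weeks ran on other plates than the 10, so these levels stand side by side without a test.

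Among 19 genes of styrene and xenobiotic metabolism Ces1g was the only one called, and 3 of the 19 lay above 0, with a median of -0.15. Ephx1, the microsomal epoxide hydrolase, had 10.79, 10.66, 10.46, 10.60 and 10.26 at 52 weeks and 10.77, 10.90, 10.87, 10.89 and 10.99 at 26 weeks, and missed the threshold (-0.33, adjusted p = 0.0551). Serpind1, the thrombin inhibitor heparin cofactor II, had 5.77, 5.53, 5.69, 5.95 and 5.82 at 52 weeks and 6.48, 6.56, 6.27, 6.11 and 6.43 at 26 weeks. All 52-week values were under all 26-week values, and it was not called either (-0.62, adjusted p = 0.102).

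Glutathione transferases, which join glutathione to electrophiles, had 6 of 15 tested members called lower at 52 weeks and none higher. The other 9 were not called, all 15 lay under 0, and the median was -0.37. Among all tested genes the median was -0.04 and 6.98% were called lower. Gsta2 had 6.39, 6.93, 6.28, 6.51 and 6.35 at 52 weeks and 7.72, 7.54, 7.65, 7.43 and 7.71 at 26 weeks. The groups did not overlap, and Gsta2 was 2.17-fold lower at 52 weeks (-1.11 ± 0.25, adjusted p = 0.00168). Mgst3, a microsomal member, was lower by the test as well (-0.52 ± 0.13, adjusted p = 0.00428), as was Gstt2 of the theta class (-0.56 ± 0.14, adjusted p = 0.00624). Gstm5, Gstm3 and Gstk1 were the other members called, and Gstp1 had one of the smallest differences (-0.05, adjusted p = 0.793). Gstm5 lost its call without 52-week replicate 1 (adjusted p = 0.0519), where 4 members of the list were called lower. Several of these genes have near-identical paralogs, so probes may read more than 1 of them.

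Of 19 genes listed as Nrf2 targets 4 were called lower at 52 weeks and none higher, while 10 lay above 0 and the median was 0.01, so members stood on both sides of 0. Without 52-week replicate 2 the list had 2 called lower. The share called lower over all tested genes was 6.98%. Nqo1, a quinone reductase, had 5.61, 6.12, 6.20, 6.58 and 5.65 at 52 weeks and 7.31, 7.25, 7.08, 6.65 and 6.71 at 26 weeks. Its groups did not overlap, and Nqo1 was 1.95-fold lower at 52 weeks (-0.97 ± 0.22, adjusted p = 0.00176). Gpx2, a glutathione peroxidase of epithelia, had 9.03, 9.09, 8.82, 8.93 and 8.56 at 52 weeks and 10.03, 9.84, 9.80, 9.63 and 9.57 at 26 weeks, again with no overlap (-0.89 ± 0.23, adjusted p = 0.00705). Cbr3, a carbonyl reductase (-0.44, adjusted p = 0.0311), and Taldo1 of the pentose phosphate pathway (-0.28, adjusted p = 0.0268) completed the 4. Cbr3 lost its call without any of 6 of the 10 arrays, with an adjusted p of up to 0.0848 without 26-week replicate 3, and Taldo1 without any of 4, up to 0.0844 without 52-week replicate 1. Gclc, the catalytic subunit of glutathione synthesis, stood highest among the members (0.44, adjusted p = 0.0743).

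By week, Nqo1 in styrene-exposed WT lungs averaged 7.00 ± 0.30 at 26 weeks, 6.03 ± 0.41 at 52, 7.04 ± 0.29 at 78 and 7.07 ± 0.35 at 104 (SD, n = 5 each), against 5.90 ± 0.39 on air at 52 weeks (n = 5) and 5.60 ± 0.13 on air at 104 weeks (n = 4). Gpx2 gave 9.77 ± 0.18, 8.89 ± 0.21, 9.32 ± 0.32 and 9.79 ± 0.24 over the same styrene weeks, and 9.35 ± 0.05 on air at 52 weeks. Gsta2 gave 7.61 ± 0.12, 6.49 ± 0.26, 6.86 ± 0.30 and 7.26 ± 0.27, and 7.60 ± 0.17 on air at 52 weeks. For each of these genes and for Ces1g, the mean at 52 weeks was the lowest of the 4 styrene weeks. The plates of 78 and 104 weeks differ as given for Ces1g, so these levels too stand without a test.

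**Figure D2:**
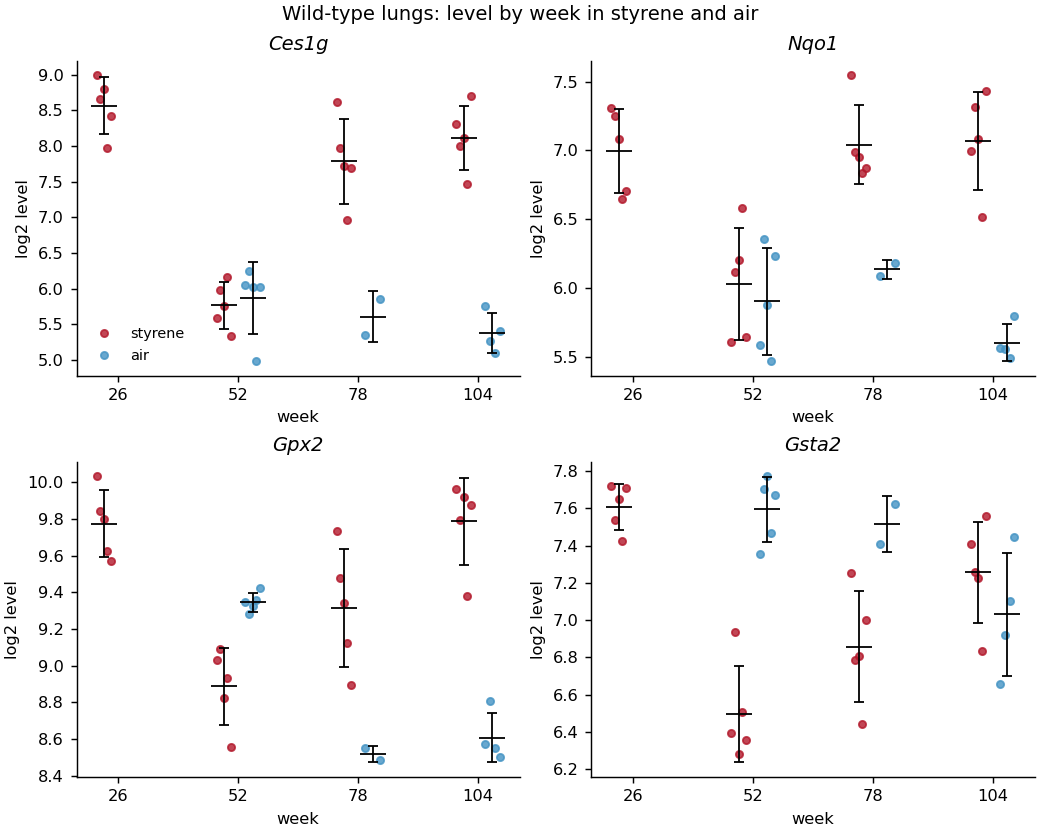
Log2 levels of Ces1g, Nqo1, Gpx2 and Gsta2 in WT lungs by week (x axis), with red points for styrene and blue points for air, 1 point per mouse, and bars for the mean and SD. No WT air lungs were analysed at 26 weeks; in all 4 panels the styrene lungs of 52 weeks sit below those of 26 weeks with no overlap.

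Clock genes were the next group. Arntl, the transcription factor BMAL1 at the head of the clock's positive arm, had 6.67, 5.35, 6.86, 6.86 and 6.37 at 52 weeks and 5.96, 4.52, 4.01, 4.90 and 3.77 at 26 weeks. Replicate 2 of 52 weeks and replicate 1 of 26 weeks overlap, the other lungs do not, and Arntl was 3.46-fold higher at 52 weeks (1.79 ± 0.43, adjusted p = 0.00372). Nfil3 had 6.94, 5.57, 6.82, 6.74 and 6.10 at 52 weeks and 5.81, 5.11, 4.93, 5.25 and 4.74 at 26 weeks, with the same lungs overlapping (1.26 ± 0.31, adjusted p = 0.00495). Both genes kept their calls without any 1 array. Of 15 clock genes with a listed window, 5 held TNGGTCA in at least 1 window, against 2828 of all 27025 genes. Beside Arntl and Nfil3, the clock genes with a match were Cry2 (-0.09, adjusted p = 0.780), Per3 (-0.88, adjusted p = 0.0880) and Tef (-0.51, adjusted p = 0.129), which were not called. Tef was called lower with the mean of its probe sets (-0.75, adjusted p = 0.0262).

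Clock, the partner of BMAL1, was higher at 52 weeks (0.72 ± 0.22, adjusted p = 0.0252), and Hlf, of the output arm, was lower (-1.08 ± 0.34, adjusted p = 0.0290). Hlf had 4.90, 5.59, 4.29, 4.26 and 5.12 at 52 weeks and 4.96, 6.08, 6.04, 6.36 and 6.14 at 26 weeks. Apart from 26-week replicate 1, the 26-week lungs were all above the 52-week lungs. Clock lost its call without any of 5 of the 10 arrays (adjusted p of up to 0.0929 without 26-week replicate 3), and Hlf without any of 7 (up to 0.0791 without 52-week replicate 4).

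In all 3 of 17 clock genes were called higher and 1 lower at 52 weeks, with a median of -0.09, as members stood on both sides. Dbp had the widest difference, with 7.40, 8.83, 6.19, 6.33 and 7.59 at 52 weeks and 8.14, 9.32, 9.44, 9.12 and 9.45 at 26 weeks. Its spread within 52 weeks was wide, and it missed the threshold (-1.83 ± 0.66, adjusted p = 0.0588). Npas2, a relative of Clock (1.16, adjusted p = 0.0915), and Ciart, a repressor of the clock (-0.90, adjusted p = 0.0778), were not called. The differences were 0.13 for Per1 and 0.16 for Cry1, which were not called. For comparison, 3.00% of all tested genes were called higher and 6.98% lower.

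The lung of 26-week replicate 1, in well row A, stood apart in this group: Dbp was 8.14 there and 9.12 to 9.45 in the other 4, Hlf 4.96 against 6.04 to 6.36, and Per2 7.42 against 8.03 to 8.22. Without it 4 clock genes were called higher and 3 lower. Arntl then differed by 2.12 (adjusted p = 0.00125), Dbp by -2.06 (adjusted p = 0.0477), Npas2 by 1.45 (adjusted p = 0.0458) and Ciart by -1.09 (adjusted p = 0.0458). Without 52-week replicate 1 the counts were 2 higher and 0 lower. The hour at which each lung was taken is not in the labels, and its part in these differences was not tested.

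Among the styrene weeks, levels at 52 weeks stood apart here too. As with Ces1g, most styrene lungs of 78 weeks and all lungs of 104 weeks ran on other plates, and no test was made. Arntl averaged 4.63 ± 0.86 at 26 weeks of styrene, 6.42 ± 0.63 at 52, 4.71 ± 0.64 at 78 and 4.44 ± 0.53 at 104 (SD, n = 5 each), against 6.94 ± 0.43 on air at 52 weeks (n = 5), 5.38 ± 0.29 at 78 (n = 2) and 6.95 ± 0.30 at 104 (n = 4). Dbp ran the other way, with 9.09 ± 0.55, 7.27 ± 1.07, 9.07 ± 0.47 and 9.61 ± 0.31 over the styrene weeks and 6.09 ± 1.65 on air at 52 weeks. KO and TG lungs on air at 26 weeks had Arntl at 7.08 ± 0.17 (n = 5) and 6.95 ± 0.15 (n = 4). These mice differ from the WT styrene mice in genotype and exposure alike, and the 2 cannot be told apart here.

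**Figure D3:**
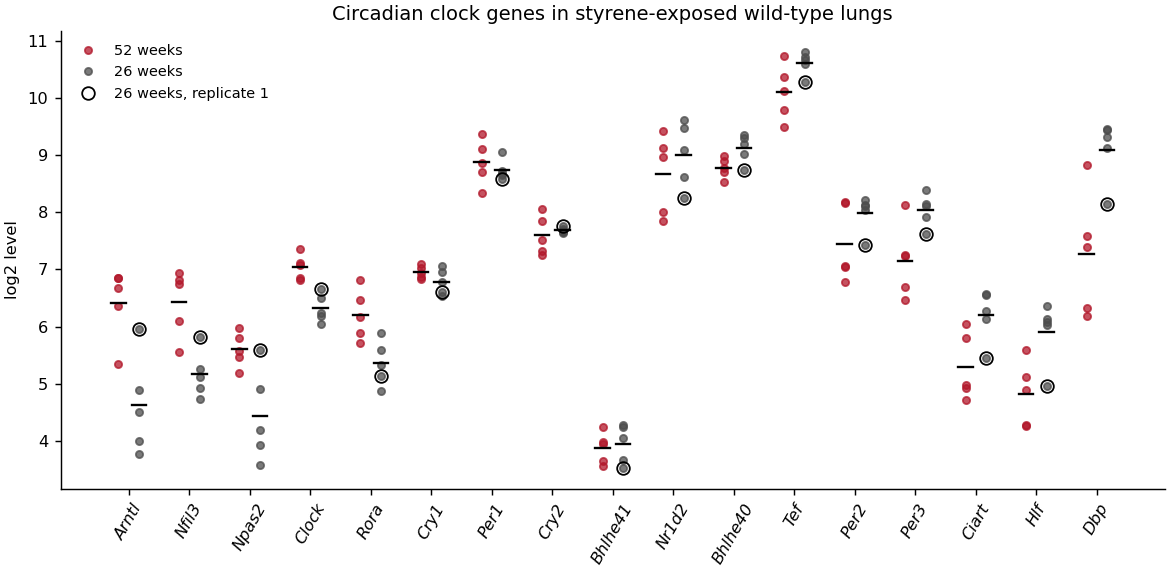
Log2 levels of the 17 clock genes in the 5 lungs of 52 weeks (red) and the 5 lungs of 26 weeks (grey) of styrene-exposed WT mice, 1 point per mouse, with lines at the means and a ring around 26-week replicate 1. Arntl and Nfil3 lie higher at 52 weeks and Hlf lower, and the ringed lung lies towards the 52-week side in these 3.

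Of 5 mesothelial genes, those of the cells that cover the lung's outer surface, 4 were called lower at 52 weeks and none higher. Their median was -1.21, and 6.98% of all tested genes were called lower. Msln, the surface protein mesothelin, had 6.88, 7.19, 7.62, 7.22 and 6.76 at 52 weeks and 7.27, 8.71, 9.08, 8.51 and 9.04 at 26 weeks. Replicate 1 of 26 weeks lay among the 52-week lungs and the other 4 lay above them all (-1.39 ± 0.33, or 2.61-fold lower, adjusted p = 0.00382). Upk3b, an uroplakin, had 9.20, 9.44, 9.66, 9.42 and 8.67 at 52 weeks and 9.54, 10.76, 10.99, 10.49 and 10.87 at 26 weeks, and again 26-week replicate 1 alone overlapped the 52-week lungs (-1.25 ± 0.36, adjusted p = 0.0170). Lrrn4 (-1.21, adjusted p = 0.0195) and the transcription factor Wt1 (-0.80, adjusted p = 0.0398) were the other called members, and Upk1b was not called (-0.52, adjusted p = 0.134).

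The mean log2 level over the 5 mesothelial genes ran between 6.64 and 7.37 at 52 weeks and between 7.23 and 8.47 at 26 weeks. Without 52-week replicate 5 only 1 of the 5 was called lower, and without 26-week replicate 1 4 were, with a median of -1.40. Upk3b lost its call without 52-week replicate 5 or 26-week replicate 3 (largest adjusted p 0.0684), Lrrn4 without any of 3 arrays (0.0758) and Wt1 without any of 7 (0.132). In whole lung, fewer cells of a type and less RNA per cell cannot be told apart, and how much pleura each sample held was not tested.

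Other genes were among the lowest called. Slurp1, a secreted protein of the Ly6 family, had 6.53, 5.94, 6.70, 5.73 and 6.29 at 52 weeks and 6.93, 8.37, 8.66, 8.08 and 8.44 at 26 weeks. No lung overlapped, and Slurp1 was 3.62-fold lower at 52 weeks (-1.86 ± 0.39, adjusted p = 0.000985). Chst4, a sulfotransferase of carbohydrate chains, had 4.23, 4.47, 4.74, 4.92 and 4.22 at 52 weeks and 5.04, 5.92, 6.37, 5.60 and 6.42 at 26 weeks, without overlap (-1.36 ± 0.26, adjusted p = 0.000318). Lgals2, a galectin, differed by -1.34 (adjusted p = 0.00545) and Aldh1a2, which makes retinoic acid, by -1.20 (adjusted p = 0.0189). In each of Slurp1, Chst4, Lgals2 and Aldh1a2 replicate 1 was the lowest of the 26-week lungs. Aldh1a2 lost its call without any of 4 arrays (up to 0.0737 without 26-week replicate 3), whereas Slurp1, Chst4 and Lgals2 kept theirs without any 1 array.

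Ube2l6, the conjugating enzyme for the interferon-induced modifier ISG15, had 6.78, 6.50, 6.69, 6.85 and 6.63 at 52 weeks and 7.80, 7.98, 7.78, 7.55 and 7.97 at 26 weeks (-1.13 ± 0.23, adjusted p = 0.000856). Gal, the neuropeptide galanin, had 6.03, 5.96, 5.97, 5.84 and 5.78 at 52 weeks and 7.08, 7.00, 7.26, 7.01 and 6.73 at 26 weeks (-1.10 ± 0.31, adjusted p = 0.0135). Tspan4, a tetraspanin, was lower by -1.09 ± 0.23 (adjusted p = 0.00127). In all 3 genes every 52-week lung lay under every 26-week lung. No member of the list of 14 type I interferon response genes was called.

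Of 13 heart muscle genes 2 were called higher at 52 weeks and none lower. With 3.00% of all tested genes called higher and 9.98% in either direction, 2 calls alone are no result about the list. The other 11 were not called, 10 of the 13 lay above 0, and the median was 1.06. Tnnt2, cardiac troponin T, had 8.41, 9.83, 7.97, 8.84 and 7.90 at 52 weeks and 6.99, 7.45, 6.97, 7.43 and 6.29 at 26 weeks, without overlap (1.57 ± 0.54, adjusted p = 0.0469). Myoz2, a protein of the sarcomere's Z-disc, had 5.56, 7.01, 4.99, 6.16 and 5.07 at 52 weeks and 4.03, 4.74, 4.26, 4.32 and 3.44 at 26 weeks, again without overlap (1.60 ± 0.53, adjusted p = 0.0392). The lung of 52-week replicate 2 was the highest in both, and it was also the highest for Ldb3, another Z-disc protein (1.13 ± 0.30, adjusted p = 0.00940).

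Tnnt2 lost its call without the plate term (adjusted p = 0.0505) and without any of 8 of the 10 arrays, and Myoz2 without any of 6, each with the largest adjusted p, 0.167 and 0.147, without 52-week replicate 2. Without 52-week replicate 1 none of the 13 was called. Ldb3 lost its call without 52-week replicate 2 alone (0.0726). Actc1, cardiac actin, did not overlap between the groups and was not called (0.98, adjusted p = 0.0833). The mean level over the 13 genes ran between 6.27 and 7.91 at 52 weeks and between 5.38 and 6.43 at 26 weeks. Over 11 skeletal muscle genes it ran between 3.44 and 3.77 at 52 weeks and between 3.48 and 3.74 at 26 weeks. Mouse pulmonary veins carry a sleeve of cardiac muscle, and how much of it each sample held was not tested.

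**Figure D4:**
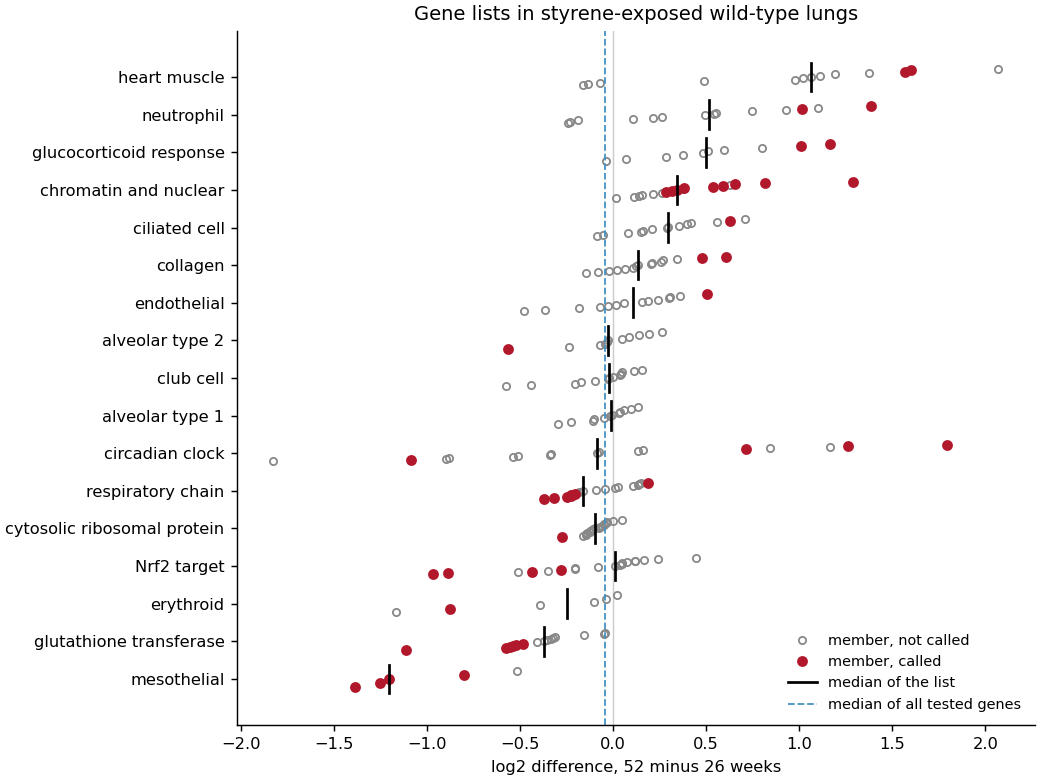
Log2 differences, 52 minus 26 weeks, of the tested members of 17 gene lists (rows), with filled red points for called members, open grey points for the rest, black bars for each list's median and a dashed line for the median of all tested genes at -0.04. Heart muscle has the highest median shown, 1.06, and mesothelial the lowest, -1.21, while the medians of type 2, type 1 and club cell lists lie between -0.03 and -0.01.

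Of 17 genes for chromatin and nuclear proteins 9 were called higher at 52 weeks and none lower, all 17 lay above 0, and their median was 0.34. The list was drawn up after such genes had been seen to be higher at 52 weeks in these samples, so it is not independent evidence of their direction. Tet2, which oxidises methylcytosine, had 7.12, 6.76, 6.10, 6.19 and 6.86 at 52 weeks and 5.89, 5.05, 4.62, 5.59 and 5.44 at 26 weeks, without overlap (1.29 ± 0.31, adjusted p = 0.00323). Srrm2, a scaffold of splicing speckles, had 10.15, 9.67, 10.26, 10.01 and 10.44 at 52 weeks and 9.32, 9.12, 9.13, 9.39 and 9.50 at 26 weeks, also without overlap (0.82 ± 0.20, adjusted p = 0.00405). Huwe1, a ubiquitin ligase, differed by 0.54 (adjusted p = 0.00197) and Arid1a, of the BAF remodelling complex, by 0.29 (adjusted p = 0.00309). The list had 5 members called without 26-week replicate 3. Among all tested genes 3.00% were called higher.

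Outside the list, 3 of the highest called genes are given with their values. Taf15, an RNA-binding protein of the FET family, had 6.37, 6.21, 5.71, 5.54 and 6.12 at 52 weeks and 5.37, 4.49, 4.45, 4.85 and 4.88 at 26 weeks (1.18 ± 0.24, adjusted p = 0.000561). Kansl1, a scaffold of a histone acetyltransferase complex, had 6.54, 6.46, 5.88, 6.18 and 6.36 at 52 weeks and 5.34, 5.08, 5.25, 5.23 and 5.17 at 26 weeks (1.07 ± 0.20, adjusted p = 0.000291). Neither overlapped. Marf1, an RNA regulator known from the oocyte, differed by 1.07 ± 0.19 (adjusted p = 0.000190). For Kansl1 the brightest of 3 probe sets carried the difference, 1.07, while the others gave -0.34 and 0.16, and with their mean Kansl1 was not called (0.30, adjusted p = 0.0659).

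Respiratory chain genes, which encode the complexes of mitochondrial ATP production, were divided: 7 of 19 were called lower and 1, Cox6a1, higher, with 7 above 0 and a median of -0.16. Ndufb5, of complex I, had 10.10, 10.34, 10.54, 10.39 and 10.31 at 52 weeks and 10.65, 10.71, 10.71, 10.67 and 10.81 at 26 weeks, a small difference without overlap (-0.37 ± 0.09, adjusted p = 0.00508). The list had 2 members called lower without 52-week replicate 1. Among all tested genes 6.98% were called lower and 3.00% higher. Gene families picked by symbol after their values were seen gave 21 of 32 complex I genes called lower and none higher (median -0.28), and 31 of 73 mitochondrial ribosomal protein genes lower and none higher (median -0.26). Lower calls were not confined to mitochondrial families. Proteasome genes had 6 of 18 lower and none higher (median -0.20), and RNA polymerase II genes 5 of 11 lower and 1 higher (median -0.28). For 69 cytosolic ribosomal protein genes it was 15 lower and 1 higher (median -0.10), and Rpl27, with 11.51, 11.46, 11.66, 11.62 and 11.53 at 52 weeks and 11.88, 11.79, 11.92, 11.67 and 11.89 at 26 weeks, was lower by the test (-0.28 ± 0.05, adjusted p = 0.000374).

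Gene span, the distance from a gene's first to last base in the annotation, separated the called genes. The median span was 45.1 kb for genes called higher, 9.55 kb for genes called lower and 20.7 kb for all tested. In the quartile of shortest genes 12.7% were called lower and 1.40% higher, and in the quartile of longest genes 3.14% lower and 5.46% higher. The gene families picked by symbol are of short genes. Their median spans ran from 3230 bases for cytosolic ribosomal proteins to 10817 for the proteasome, against 20724 over all tested genes. How much of the family counts goes with span was not tested. A score per array was the mean log2 level of the longest quartile minus that of the shortest. This score was 0.245 ± 0.080 at 52 weeks and 0.0576 ± 0.092 at 26 weeks (SD, n = 5 each). The scores of the 2 groups did not overlap. The score was made after the span of the called genes had been seen, so its values are a description. The same difference, 0.187 in WT styrene, was 0.188 in CD-1 styrene, 0.132 in TG styrene, 0.126 in CD-1 air, 0.0468 in KO styrene, 0.0222 in KO air and -0.0448 in TG air. The score has no plate term. In CD-1 styrene at 26 weeks, replicate 2 ran on plate 2 and scored -0.198, against 0.090 to 0.262 in the others on plate 1. The CD-1 styrene difference thus rests in part on that array.

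With this score as a covariate, a fit chosen after seeing the data, 1452 genes were called, 684 higher and 768 lower, of which 673 were among the 1567. The chromatin list then had 6 of 17 higher and 1 lower, the glutathione transferases 4 of 15 lower, the Nrf2 targets 2 of 19 lower, the mesothelial list 1 of 5 lower and the heart muscle list 0 of 13. The respiratory chain list had 3 higher and 3 lower of 19. Ces1g, Gsta2, Nqo1, Gpx2, Arntl and Nfil3 kept their calls there. Of the 75 called genes named by the rule 25 lost theirs, among them Clock (0.22, adjusted p = 0.268), Pmaip1 (0.36, adjusted p = 0.192), Taldo1 (-0.13, adjusted p = 0.218), Tnnt2 (1.12, adjusted p = 0.171), Cbr3, Gstt2, Upk3b, Lrrn4, Wt1, Aldh1a2, Myoz2, Mmp8 and Col8a1. The score's part in the differences beyond this was not tested.

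**Figure D5:**
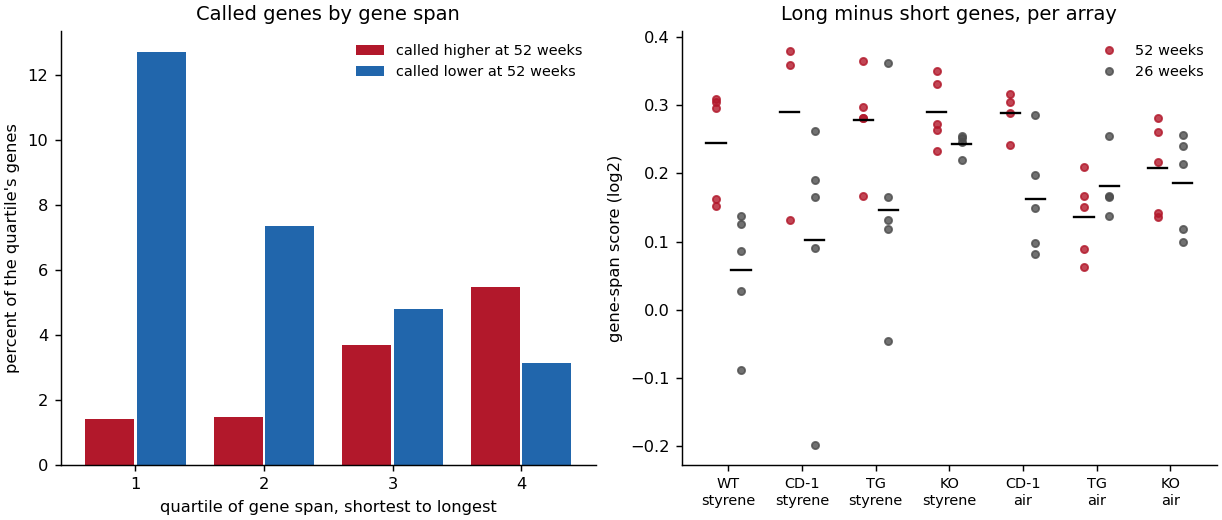
Left, the percent of genes called higher (red) and lower (blue) at 52 weeks in each quartile of gene span, from 12.7% lower in the shortest to 3.14% in the longest. Right, the gene-span score of each array (points) with group means (lines) at 52 weeks (red) and 26 weeks (grey) by mouse and exposure; the WT styrene groups do not overlap.

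Genes of cell stress and growth arrest are given next. Cdkn1a, the cell cycle inhibitor p21, had 10.00, 9.10, 9.36, 9.94 and 9.06 at 52 weeks and 8.58, 8.55, 8.37, 8.69 and 8.23 at 26 weeks. The groups did not overlap, and Cdkn1a was 2.01-fold higher at 52 weeks (1.01 ± 0.26, adjusted p = 0.00705). It and Pmaip1, a promoter of apoptosis (0.90 ± 0.27, adjusted p = 0.0185), were 2 of 14 p53 and senescence genes called higher, with a list median of 0.04. It and Pdk4, which restrains pyruvate use (1.16 ± 0.35, adjusted p = 0.0201), were 2 of 10 glucocorticoid response genes called higher, with a list median of 0.50. With 3.00% of all tested genes called higher and 9.98% in either direction, 2 calls alone are no result about either list. Pmaip1 lost its call without 52-week replicate 1 or 26-week replicate 3 (largest 0.0716), and Pdk4 without any of 4 arrays (up to 0.0897 without 26-week replicate 3).

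Neutrophil genes had 2 of 14 called higher, none lower, and a median of 0.52. This count lies near the 9.98% called over all tested genes, of which 3.00% were called higher. Mmp8, the neutrophil collagenase, had 4.55, 4.96, 5.83, 5.23 and 7.28 at 52 weeks and 4.73, 3.69, 3.74, 4.15 and 4.60 at 26 weeks, with overlap and 1 high lung, replicate 5 (1.39 ± 0.47, adjusted p = 0.0445). Without that lung Mmp8 was not called (0.96, adjusted p = 0.237). Lrg1, a secreted glycoprotein of neutrophil granules and endothelium, did not overlap (1.01 ± 0.34, adjusted p = 0.0413) and lost its call without any of 7 arrays (up to 0.116, without 52-week replicate 5). Without 52-week replicate 3 none of the 14 was called. The mean level over the 14 genes ran between 5.77 and 7.26 at 52 weeks and between 5.86 and 6.25 at 26 weeks.

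Col4a1, a chain of basement membrane collagen, had 10.78, 10.68, 10.56, 10.69 and 10.69 at 52 weeks and 10.28, 10.17, 10.15, 10.22 and 10.20 at 26 weeks, a tight difference without overlap (0.48 ± 0.10, adjusted p = 0.000818). It was 1 of 2 of 15 collagen genes called higher, beside Col8a1 (0.61, adjusted p = 0.0369), which lost its call without any of 7 arrays (up to 0.0977, without 26-week replicate 3). With the mean of its probe sets Col8a1 differed by 0.21 (adjusted p = 0.286), and with the gene-span covariate by 0.28 (adjusted p = 0.278). S100g, a calcium-binding protein of type 2 cells, was the only 1 of 11 type 2 cell genes called, and was lower (-0.57 ± 0.13, adjusted p = 0.00325). Jun of the immediate-early genes was higher (0.54 ± 0.15, adjusted p = 0.0125) and Egr3 lower (-0.45 ± 0.11, adjusted p = 0.00345), 2 of 18 in that list. The 2 of 15, 1 of 11 and 2 of 18 all lie near the 9.98% called over all tested genes.

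Of all 46 lists 25 held a called member and 21 held none. Since 9.98% of all tested genes were called, a called member is not by itself a result about its list. Lists with none included B cells (13 genes), T and cytotoxic cells (16), MHC class II (10), alveolar macrophages (13), type 1 cells (12), club cells (13), mucous and goblet cells (13), mitosis (22), DNA replication (20), heat shock (12) and the unfolded protein response (17). The highest difference of any tested gene lay in one of these lists: Clca1, a goblet cell protein, at 2.71 ± 1.10 SE, which was not called (adjusted p = 0.0954).

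Mice without CYP2F2 gave fewer calls over the same weeks of styrene: 2 in KO (0.0127%), both higher at 52 weeks, and 283 in TG (1.80%), of which 113 were higher (0.720%) and 170 lower (1.08%). CD-1 mice on styrene gave 269 (1.71%), with 97 higher (0.618%) and 172 lower (1.10%). On air the counts were 1 in KO (0.00637%), 5 in TG (0.0319%), with 4 higher (0.0255%) and 1 lower, and 198 in CD-1 (1.26%), with 55 higher (0.350%) and 143 lower (0.911%). Signs in the other mice are given for the genes called in WT. Of the 471, 96.8% lay above 0 in TG styrene against 41.4% of all genes, 84.9% in KO styrene against 51.5%, 97.5% in CD-1 styrene against 45.4%, 89.6% in CD-1 air against 46.9%, 78.3% in KO air against 47.8% and 66.5% in TG air against 49.5%. Of the 1096 lower genes, 98.1% lay below 0 in TG styrene against 58.6% of all genes, 83.4% in KO styrene against 48.5%, 95.5% in CD-1 styrene against 54.6%, 93.0% in CD-1 air against 53.1%, 84.6% in KO air against 52.2% and 74.7% in TG air against 50.5%. These groups share no sample with WT, but genes were chosen on WT, so the shares are descriptions.

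The difference between the 2 kinds of mice was tested directly. For WT styrene minus the mean of KO and TG styrene 1 gene was called (0.00637%), Ces1g, at -3.06 ± 0.35 (adjusted p = 2.77e-10), and 729 had an unadjusted p under 0.05. Ces1g averaged 4.47 ± 0.39 at 52 weeks (n = 5) and 3.90 ± 0.40 at 26 weeks (n = 4) in styrene-exposed KO lungs, and 4.47 ± 0.27 and 4.52 ± 0.10 (n = 5 each) in TG lungs. All these groups lay below the WT lungs of both weeks. Next in order of p were Rtn4 (0.50, adjusted p = 0.375), Ly6g6c (-0.80) and Leo1 (1.00, both with an adjusted p of 0.553) and Marf1 (0.88, adjusted p = 0.673), none of them called. Whether these genes, or the Nrf2 and mesothelial members, differ between WT and null mice is thus not shown by the counts above.

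Against the null mice on air 12 genes were called (0.0765%), 8 with a higher (0.0510%) and 4 with a lower difference (0.0255%) in WT styrene, and 2029 had an unadjusted p under 0.05. Ces1g differed by -2.69 (adjusted p = 8.18e-08). C130075A20Rik (1.25, adjusted p = 0.00715), Fubp1, a DNA-binding regulator (1.17, adjusted p = 0.0497), Leo1, of the PAF1 elongation complex (1.16, adjusted p = 0.0297), Rbm6, an RNA-binding protein (1.10, adjusted p = 0.00648) and Brwd1, a bromodomain protein (1.05, adjusted p = 0.0387) had the 5 highest values. With the mean of probe sets 5 of the 12 were not called, among them Rbm6 (0.59, adjusted p = 0.226), Brwd1 (0.39, adjusted p = 0.147) and Fubp1 (0.87, adjusted p = 0.119). Leo1 had 5.92, 5.66, 5.90, 5.90 and 5.91 at 52 weeks and 5.40, 4.86, 4.26, 4.86 and 4.95 at 26 weeks in WT styrene lungs, without overlap. Ly6g6c, a gene of the Ly6 family (-0.98, adjusted p = 0.0136) had 3.29, 3.34, 3.35, 3.30 and 3.20 at 52 weeks and 4.61, 4.19, 4.22, 3.53 and 4.13 at 26 weeks, also without overlap. The 52-week values of Ly6g6c lay close above the filter level of 3.015 to 3.143, so the size of its difference is not well measured. This count was 34 without 26-week replicate 1, 27 without 26-week replicate 4, 7 and 6 without 26-week replicate 3 or 5, and 2 without 26-week replicate 2. Without 52-week replicate 1 it was 3, and without 52-week replicate 2 or 5 it was 5. Exposure and genotype both differ in this comparison and cannot be told apart.

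CD-1 mice are an outbred stock whose labels name no change at CYP2F2. WT styrene minus CD-1 styrene called 1 gene (0.00637%), Glg1, a Golgi glycoprotein, at 1.40 ± 0.27 (adjusted p = 0.0116), and 373 genes had an unadjusted p under 0.05. Glg1 had 9.17, 9.03, 8.91, 8.90 and 8.98 at 52 weeks and 8.67, 8.64, 8.40, 8.65 and 8.60 at 26 weeks in WT, while CD-1 styrene lungs averaged 7.68 ± 0.29 (n = 3) and 8.66 ± 0.22 (n = 5). With the mean of all Glg1 probe sets the difference was 0.56 and was not called (adjusted p = 1). The next genes by p, Olfm4 (-1.54, adjusted p = 0.218) and Ly6e (-0.73, adjusted p = 0.470), were not called.

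Side by side, the 52 minus 26 week difference in styrene was -2.80 in WT and -2.02 in CD-1 for Ces1g, -0.97 and -0.89 for Nqo1, -0.89 and -1.10 for Gpx2, 1.79 and 2.72 for Arntl, 1.26 and 1.54 for Nfil3, and -1.39 and -1.30 for Msln. On air CD-1 mice gave -0.17 for Ces1g, -0.43 for Nqo1, -0.01 for Gpx2, -0.13 for Arntl, 0.16 for Nfil3 and -0.80 for Msln. In KO styrene the values were 0.57 for Ces1g, 0.02 for Nqo1, -0.23 for Gpx2, 0.67 for Arntl and -0.85 for Msln, and in TG styrene -0.05, -0.33, -0.23, 0.27 and -1.06 for the same genes. The mesothelial list had medians of -1.21 in WT styrene, -1.14 in CD-1 styrene, -0.78 in TG styrene, -0.58 in KO styrene, -0.82 in CD-1 air, -0.22 in TG air and -0.05 in KO air.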

How the data were processed

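Whole-lung RNA of each mouse was labelled and run on an Affymetrix HT MG-430 PM array. Per the submitters' processing notes, the deposited log2 values were made with RMA, and Partek is named too; the sources used here give no version of either. RMA compresses differences near the dim end. Of 45037 probe sets 28898 name 1 gene, and the brightest probe set stood for a gene. Genes above the 30th percentile in at least 3 arrays were tested, 15695 of 17097. limma (lmFit, eBayes; version 3.58.1 in R 4.3.3) fitted all 150 arrays with 31 group means and a plate 2 term, and p-values were adjusted by Benjamini and Hochberg. Every adjusted p of a gene is limma's. Named genes were the 15 highest and 15 lowest called, up to 4 members per list by p, the clock list, Cyp2f2 and the leading genes of each comparison between mice; other genes were chosen after their values were seen. Members and lists were chosen with earlier results of these data known. Clca1, Gclc, Gstp1, Gstm3, Gstk1, Upk1b, Sftpc, Scgb1a1 and Alb are such other genes. Gene spans and upstream sequences came from RefSeq (GRCm38.p6). Lungs with the same replicate number did not deviate together from their group means (correlations of -0.157, 0.113, 0.233, -0.295 and 0.219), so numbers were not treated as pairs. The fit was tested on simulated data. Figures were drawn with matplotlib.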

Additional observations from a re-analysis of the deposited data

Results flagged for a closer look

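Among 190 groups of 5 values looked at, 11 held 1 mouse far from the other 4, and chance alone gives about 1 in 20. In the 26-week lungs, replicate 1 stood low for Hlf (4.961, against 6.04 to 6.36 in the others), Dbp (8.142, against 9.12 to 9.45), Per2 (7.422, against 8.03 to 8.22) and Calcb (4.165, against 4.80 to 4.98). Replicate 5 of 26 weeks stood low for the heart muscle genes Actc1 (8.302, against 9.07 to 9.28) and Ldb3 (3.24, against 3.67 to 3.83). Replicate 3 of 26 weeks stood low for Secisbp2l (5.107, against 5.67 to 5.86) and Glg1 (8.395, against 8.60 to 8.67). In the 52-week lungs, replicate 1 stood high for Alas2, an enzyme of haem synthesis in red cells (9.864, against 9.19 to 9.31). Replicate 2 of 52 weeks stood high for Tspan4 (9.089, against 8.44 to 8.62) and low for Leo1 (5.665, against 5.90 to 5.93).

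The 52 minus 26 week difference in WT styrene differed by limma's interaction test from that of the null mice on styrene for Ces1g, by -3.062. Against the null mice on air it was higher for C130075A20Rik (1.253), Fubp1 (1.165), Leo1 (1.164), Rbm6 (1.097), Brwd1 (1.046), Map4 (1.01), Airn (0.7596) and Pabpn1 (0.4784). It was lower there for Ces1g (-2.689), Ly6g6c (-0.977), Nrl (-0.4954) and LOC432842 (-0.4594). Nrl was under the filter level at 52 weeks, so its value is no exact difference, and Ly6g6c lay close above that level. LOC432842 averaged 3.07 at 52 weeks, within the range of the filter level, 3.015 to 3.143, so its difference is not well measured either. With the mean of probe sets Map4 had 0.57, and Airn (0.25, adjusted p = 0.382) and LOC432842 (-0.31, adjusted p = 0.130) were not called there, nor were Rbm6, Brwd1 and Fubp1. Against CD-1 mice on styrene it was higher for Glg1, by 1.404.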

How the results depend on the processing

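Called counts in WT styrene ran between 691 and 1591 without 1 array, against 1567 with all. They were 2560 with the arrays of the contrast alone and 3942 with a covariate for the main within-group axis of variation. Of the other settings, none moved this count by more than 1.5 times. Against null mice on styrene the count was 1, and 2 with the contrast's arrays alone and 39 with the axis covariate; it was 1 without any 1 array. Against null mice on air it was 12, with 39 for C57BL/6 arrays alone, 342 for the contrast's arrays alone, 1529 with the axis covariate and 2 to 34 without 1 array. Against CD-1 mice on styrene it was 1, with 0 for the mean of probe sets (369 genes at an unadjusted p under 0.05, limma) and 1 to 2 without 1 array; C57BL/6 arrays alone give no such value. The axis was drawn from the arrays' own deviations from group means. It left the WT styrene differences unchanged and mainly narrowed their spread, so more calls with it follow from how it was made. The causes of the other shifts were not tested.

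Replicate numbers gave no pairs. With the replicate number as a block on the contrast's arrays, 1699 genes were called in WT styrene, 2 against null styrene, 213 against null air and 1 against CD-1 styrene.

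Of 95 named genes 75 were called, 38 of them without any 1 array as well and 40 in every other setting, and none of the 75 changed sign. Dbp (adjusted p = 0.0389), Ephx1 (0.0159) and Serpind1 (0.0459) were called with C57BL/6 arrays alone. The covariate for gene span was added after seeing the data. There were 5 mice a group, week and well row coincide, and no WT air lungs of 26 weeks were analysed, so exposure length, age and array position cannot be told apart.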
